A study of Homo sapiens with 6 samples.

Results

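The 52 genes described here encode proteins that recognise, signal or mend damage in DNA, and they were taken by symbol from the 20811 genes on an expression panel that was run on HuCCT1, a cell line of human intrahepatic cholangiocarcinoma (iCCA). HuCCT1/CD90+ cells had received a THY1-CMV-GFP lentivirus, THY1 being the gene of the surface glycoprotein CD90, and HuCCT1/CD90− cells had received the Lenti-CMV-GFP-2A-Puro-Blank vector, both vectors being named for CMV and GFP. There were 3 libraries of total RNA from each line, with replicate numbers 1 to 3 in both. Both lines derive from the same parental line, 1 transduced population of each is described, and the study's methods speak of biological replicates in general without saying whether the 3 libraries of a line came from separate cultures. The p-values below therefore measure the spread between these libraries, which may be technical, and a difference between the vectors, their integration sites and the THY1 insert cannot be told apart. No agent that damages DNA was applied to the sequenced cells in the labels.

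Cells mend DNA by several routes that depend on the lesion. A double-strand break is sensed by the MRE11-RAD50-NBS1 complex and the ATM and ATR kinases, and is then either copied from the sister chromatid (homologous recombination) or rejoined directly (non-homologous end joining). The Fanconi anaemia pathway unhooks crosslinks between strands, mismatch repair corrects copying errors, nucleotide excision repair removes bulky adducts, base excision repair and the PARP enzymes handle damaged bases and nicks, and MGMT takes alkyl groups off guanine. Genes of homologous recombination and of the Fanconi anaemia pathway are known to be expressed most in S and G2 phase, and repair genes are studied in biliary cancers for the response to platinum drugs and PARP inhibitors.

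Expression was read with an Ion AmpliSeq panel, 1 short amplicon standing for a gene, and is given in RPM, reads scaled to a common library total. Amplicons differ in efficiency, so RPM values are compared here between lines for 1 gene and not between genes. The libraries held 8587634 to 10551516 reads on genes, and 3 reads, the floor used for detection, correspond to 0.284 to 0.349 RPM. THY1 had at most 1 read per library without the insert and 435 to 680 reads per library with it. KRT7 and KRT19, keratins of biliary epithelium, averaged 3433 and 3228 RPM in HuCCT1/CD90− against 3656 and 4146 RPM in HuCCT1/CD90+. Of 9 biliary epithelial markers 6 were higher and 1 lower in HuCCT1/CD90+, with the largest rise in CDH1, the gene of E-cadherin (14.4 against 227 RPM), and a fall in SPP1, the gene of osteopontin (31.8 against 0.480 RPM, log2 fold change -4.41, adjusted p = 0.00338). With the replicate block, a term for the libraries' shared numbers, 4 were higher and 1 lower, KRT19 (adjusted p = 0.135) and KRT8 (0.0921) no longer passing. Of 11 fibroblast and leukocyte markers 6 were lower and 0 higher in HuCCT1/CD90+ by limma (0 higher also at an unadjusted p under 0.05, in edgeR and in DESeq2), and their summed level was 141 to 154 RPM in HuCCT1/CD90− against 25.6 to 31.0 RPM in HuCCT1/CD90+. With the replicate block 3 of the 11 were lower, COL1A2 (adjusted p = 0.0903), DCN (0.0859) and LYZ (0.0688) no longer passing. Among them the myeloid markers CD14 and LYZ averaged 80.8 and 12.0 RPM in HuCCT1/CD90− against 4.32 and 1.52 RPM in HuCCT1/CD90+ and both were lower (adjusted p = 0.000367 and 0.00824), while PTPRC and CD3E had at most 1 and 3 reads in a library. CD14 was the largest part of the sum in HuCCT1/CD90−. COL1A1, a fibroblast marker of the list, averaged 13.5 RPM in HuCCT1/CD90− against 14.2 RPM in HuCCT1/CD90+ (log2 fold change 0.08) and was not called. The part of such differences between the lines in the results below was not tested. In bulk RNA, fewer cells with a transcript and less of it per cell cannot be told apart.

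For 47 of the 52 genes a promoter was found in the RefSeq promoter table (build GRCh38.p14), which lists 250 bases before and 50 after each start. They are described because the genes below fall into those that were lower and those that were higher in HuCCT1/CD90+. The GC box (GGGCGG, either strand), the letters bound by SP1 family factors, stood in the window of 37 of the 47 genes (78.7%), while 48.3% of all 27305 genes of that table held it. CCAAT, the letters bound by NF-Y, stood in 21 (44.7%), against 39.7% of all genes. An E2F site (TTTCGCGC or TTTGGCGC) stood in 4 (8.51% against 1.40%), an NRF1 site (GCGCATGC) in 5 (10.6% against 3.68%) and the cell cycle element CHR (TTTGAA or TTCGAA) in 6 (12.8% against 19.5%). Both strands were searched, each motif was counted on its own even where 2 motifs overlap, and a match describes letters in this window and not binding.

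The 250 bases upstream of the start are printed 5′ to 3′ for 5 genes, 4 that were lower (FANCD2, XPC, RAD54L and MSH6) and 1 that was higher (FANCF) in HuCCT1/CD90+, since these had the largest differences between the lines among the genes called below. Capitals mark GC boxes and CCAAT on either strand. The promoter table lists 4 windows for MSH6 and 2 for RAD54L, of which 1 each is printed, and the other MSH6 windows held no CCAAT. FANCD2 lies at chr3:10026187-10026436 (plus strand), XPC at chr3:14178602-14178851 (minus strand), RAD54L at chr1:46247438-46247687 (plus strand), MSH6 at chr2:47782895-47783144 (plus strand) and FANCF at chr11:22625824-22626073 (minus strand).
FANCD2: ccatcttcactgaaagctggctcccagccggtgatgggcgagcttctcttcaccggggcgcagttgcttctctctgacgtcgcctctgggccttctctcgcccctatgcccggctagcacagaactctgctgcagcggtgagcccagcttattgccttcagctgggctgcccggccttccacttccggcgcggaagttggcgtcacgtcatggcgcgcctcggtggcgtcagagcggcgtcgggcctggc
XPC: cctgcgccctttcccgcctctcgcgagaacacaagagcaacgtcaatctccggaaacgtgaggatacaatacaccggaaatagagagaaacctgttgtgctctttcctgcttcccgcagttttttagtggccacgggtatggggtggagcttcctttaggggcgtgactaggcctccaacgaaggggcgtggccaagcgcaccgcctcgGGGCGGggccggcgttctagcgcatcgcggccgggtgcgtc
RAD54L: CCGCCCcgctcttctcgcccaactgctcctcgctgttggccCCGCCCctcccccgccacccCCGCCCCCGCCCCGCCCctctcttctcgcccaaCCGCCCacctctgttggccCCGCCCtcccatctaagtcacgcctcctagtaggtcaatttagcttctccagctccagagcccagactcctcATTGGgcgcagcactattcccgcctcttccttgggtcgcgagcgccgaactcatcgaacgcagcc
MSH6: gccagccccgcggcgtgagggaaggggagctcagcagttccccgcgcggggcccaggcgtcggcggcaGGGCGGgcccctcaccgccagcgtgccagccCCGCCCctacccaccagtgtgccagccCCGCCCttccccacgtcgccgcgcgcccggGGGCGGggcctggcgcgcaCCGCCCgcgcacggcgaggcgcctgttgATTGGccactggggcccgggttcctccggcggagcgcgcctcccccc
FANCF: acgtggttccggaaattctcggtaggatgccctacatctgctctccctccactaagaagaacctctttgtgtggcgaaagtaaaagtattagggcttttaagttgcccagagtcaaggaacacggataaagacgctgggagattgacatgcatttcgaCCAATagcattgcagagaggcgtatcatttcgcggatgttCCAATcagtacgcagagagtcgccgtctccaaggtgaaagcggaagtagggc
RAD54L held 7 GC boxes, some of them sharing 1 base, and 1 CCAAT, MSH6 held 5 and 1, and XPC held 1 GC box. FANCF held 2 CCAAT and FANCD2 neither motif in these bases. Over the 300-base windows, 7 of the 8 genes that were lower and 1 of the 2 that were higher held a GC box, and 0 of these 10 held the E2F or the NRF1 letters.

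Between the lines, 8 of the 52 repair genes were lower in HuCCT1/CD90+ and 2 were higher, while the other 42 did not pass the test. The lower genes were RAD51C, RAD54L, FANCD2, FANCE, BRIP1, MSH6, XPC and PARP1, and the higher ones were FANCF and ERCC1. The test was limma on log2(RPM + 1) over all 20811 genes with Benjamini-Hochberg adjustment, a gene being called at an adjusted p of at most 0.05, and every adjusted p below is from it unless another tool is named. Fold changes are HuCCT1/CD90+ over HuCCT1/CD90− on this scale, which understates the change of low genes. Of all genes tested, 9.41% were higher and 9.52% lower. Of the 12062 genes averaging 1 RPM or more, which 51 of the 52 repair genes reached, 14.4% were higher and 15.0% lower in the same fit. The share of repair genes among these that was lower was 15.7% and the share that was higher was 3.92%, so the former was near that of all such genes and the latter below it. The median log2 fold change of the 52 was -0.06, with a range from -1.07 to 0.90, beside -0.01 over genes averaging 1 RPM or more.

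**Figure D1:**
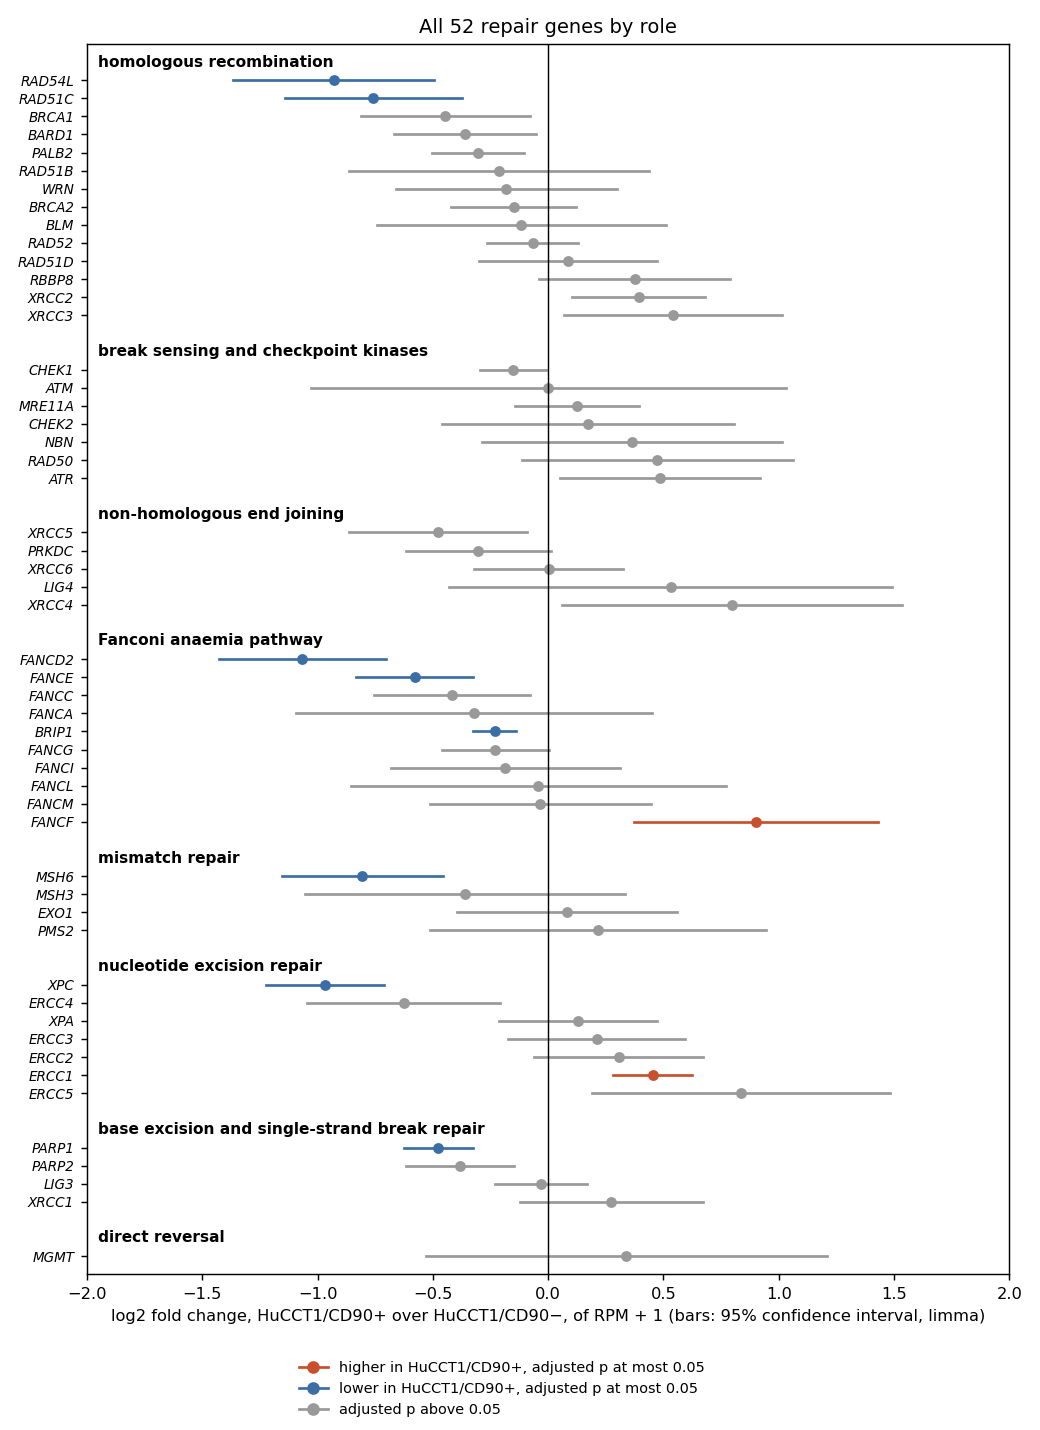
Log2 fold change (x axis, HuCCT1/CD90+ over HuCCT1/CD90−, RPM + 1) of each of the 52 repair genes, ordered within their roles, with 95% confidence intervals from limma (n = 3 libraries per line). Blue marks the 8 genes lower and orange the 2 higher in HuCCT1/CD90+, and most intervals in grey include 0.

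In homologous recombination 2 of 14 genes were lower and 0 higher by limma (5 lower and 2 higher at an unadjusted p under 0.05, 3 and 1 in limma on genes averaging 1 RPM or more, in edgeR and in DESeq2, and 2 and 1 with the block), and the median log2 fold change was -0.17. RAD51C, which acts in strand exchange and is mutated in hereditary ovarian cancer, read 93.8, 72.7 and 91.6 RPM in libraries 1 to 3 of HuCCT1/CD90− and 56.8, 44.9 and 49.4 RPM in libraries 1 to 3 of HuCCT1/CD90+. Each HuCCT1/CD90+ value was below each HuCCT1/CD90− value. The log2 fold change was -0.76 (SE 0.14, adjusted p = 0.0308). RAD54L, a motor protein that remodels DNA during strand invasion, read 44.4, 33.1 and 30.1 RPM in HuCCT1/CD90− against 17.05, 19.4 and 17.8 RPM in HuCCT1/CD90+. The lines did not overlap, HuCCT1/CD90− replicate 1 being the highest library, and the log2 fold change was -0.93 (SE 0.16, adjusted p = 0.0257). With the replicate number taken as a block the adjusted p of RAD54L was 0.0982. The RAD51C call was kept without HuCCT1/CD90− replicate 2 and was lost without any other library (adjusted p 0.0549 to 0.106), and that of RAD54L was lost without HuCCT1/CD90− replicate 2 or any HuCCT1/CD90+ library (0.0721 to 0.0939).

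The other 12 genes of this route did not pass the test. XRCC3, the partner of RAD51C in a complex, averaged 103 ± 20.3 RPM (SD, n = 3) in HuCCT1/CD90− against 149 ± 17.8 in HuCCT1/CD90+ (log2 fold change 0.54, adjusted p = 0.119). BRCA1, which directs resected breaks towards recombination, averaged 52.6 ± 7.52 RPM and 38.2 ± 3.94 (log2 fold change -0.45, adjusted p = 0.103). The 3 libraries of each line did not overlap for either gene. BRCA2, a breast cancer susceptibility gene needed for strand exchange, averaged 8.996 RPM and 7.97 RPM, with overlapping libraries and a log2 fold change of -0.15 (95% interval -0.42 to 0.12). PALB2, which bridges BRCA1 and BRCA2, stood at a log2 fold change of -0.30 with an adjusted p of 0.0604, and 0.0491 with the replicate block. XRCC2, also needed for strand exchange, stood at a log2 fold change of 0.39 (adjusted p = 0.0779) and passed with the block (0.0357). The remaining 7 genes (BARD1, RAD51B, RAD51D, RAD52, RBBP8, BLM and WRN) had log2 fold changes from -0.36 in BARD1, the partner of BRCA1, to 0.38 in RBBP8, which encodes the resection factor CtIP. RAD51B and RAD51D were read from 8 to 29 reads a library, so that small differences were not detectable at this depth.

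Among the genes that sense breaks and signal them, 0 of 7 passed the test by limma (at an unadjusted p under 0.05, ATR was higher and CHEK1 lower, and 1, ATR, was higher in edgeR and in DESeq2), and the median log2 fold change was 0.17. MRE11A, the nuclease of the sensor complex, averaged 82.5 ± 5.45 RPM in HuCCT1/CD90− against 90.2 ± 9.70 in HuCCT1/CD90+ (log2 fold change 0.12, 95% interval -0.15 to 0.39). NBN, its adaptor NBS1, averaged 42.3 ± 10.3 RPM and 54.2 ± 10.5 (log2 fold change 0.36, 95% interval -0.29 to 1.01). Libraries of the lines overlapped for both genes. RAD50, the ATPase of the complex, had higher values in each HuCCT1/CD90+ library (36.1 to 44.2 RPM) than in any HuCCT1/CD90− library (20.4 to 33.6 RPM), with an adjusted p of 0.248. ATR, the kinase that responds to single-stranded DNA, averaged 25.1 ± 3.71 RPM and 35.6 ± 5.19, without overlap (log2 fold change 0.48, adjusted p = 0.125), and its target kinase CHEK1 averaged 6.76 RPM and 5.98 RPM (adjusted p = 0.140). ATM, the kinase activated at double-strand breaks, was near the floor with 4 to 19 reads a library, and CHEK2, a kinase it activates, had 10 to 22 reads. For ATM the 95% interval of the log2 fold change ran from -1.03 to 1.03.

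In non-homologous end joining 0 of 5 genes passed by limma (XRCC4 was higher and XRCC5 lower at an unadjusted p under 0.05, in edgeR and in DESeq2). XRCC6 (Ku70) and XRCC5 (Ku80) form the ring that binds broken ends. XRCC6 averaged 808 ± 93.1 RPM in HuCCT1/CD90− against 808 ± 76.5 in HuCCT1/CD90+, a log2 fold change of 0.00 with a 95% interval from -0.32 to 0.33. XRCC5 read 561, 476 and 553 RPM in HuCCT1/CD90− against 446, 324 and 377 RPM in HuCCT1/CD90+, without overlap (log2 fold change -0.48, SE 0.14, adjusted p = 0.0989). XRCC4, the scaffold of the ligase, averaged 28.7 ± 5.29 RPM and 51.5 ± 15.4 (log2 fold change 0.80, SE 0.28, adjusted p = 0.135), and HuCCT1/CD90+ replicate 1 stood highest at 67.6 RPM. LIG4, the ligase itself, had its HuCCT1/CD90+ libraries in the same order, reading 13.3, 5.24 and 10.7 RPM in HuCCT1/CD90+ against 5.46 to 7.28 RPM in HuCCT1/CD90−, with overlap. PRKDC, the catalytic subunit of DNA-PK, averaged 263 ± 19.3 RPM and 214 ± 28.6 (log2 fold change -0.30, adjusted p = 0.175).

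In the Fanconi anaemia pathway 3 of 10 genes were lower and 1 higher, with a median log2 fold change of -0.23. In limma on genes averaging 1 RPM or more, in edgeR and in DESeq2, 2 were lower and 1 higher, and with the replicate block 1 was lower and 1 higher. FANCD2, which is ubiquitinated together with FANCI to start crosslink repair, read 70.3, 50.1 and 60.5 RPM in HuCCT1/CD90− against 28.0, 29.1 and 27.0 RPM in HuCCT1/CD90+. Every HuCCT1/CD90+ library lay below every HuCCT1/CD90− library, and the HuCCT1/CD90+ libraries lay close together. The log2 fold change of -1.07 (SE 0.14, adjusted p = 0.0110) was the most negative among the 52 genes. FANCE, a core complex subunit that contacts FANCD2, read 27.8, 21.9 and 23.8 RPM against 16.5, 16.1 and 15.4 RPM, again without overlap (log2 fold change -0.58, SE 0.09, adjusted p = 0.0213). BRIP1, the helicase FANCJ that binds BRCA1, read 14.9, 14.8 and 15.9 RPM against 12.9, 12.5 and 13.0 RPM. That difference was small, without overlap, and its log2 fold change of -0.23 (SE 0.03, adjusted p = 0.0171) rested on libraries that differed little within each line. FANCF, another core complex subunit, went the other way, reading 8.34, 12.5 and 11.2 RPM in HuCCT1/CD90− against 17.2, 24.2 and 20.8 RPM in HuCCT1/CD90+. Its libraries did not overlap, and the log2 fold change was 0.90 (SE 0.20, adjusted p = 0.0455).

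With the replicate block the adjusted p was 0.0614 for FANCD2 and 0.0594 for FANCE, while FANCF (0.0173) and BRIP1 (0.0370) stayed past the threshold. Without HuCCT1/CD90+ replicate 3 the adjusted p of FANCD2 was 0.0523, and without each of the other 5 libraries it was 0.0490 or less. FANCE was lost without HuCCT1/CD90− replicate 3 or any HuCCT1/CD90+ library (0.0678 to 0.0827), BRIP1 without any HuCCT1/CD90+ library (0.0569 to 0.0622) and FANCF without any 1 of the 6 (0.0695 to 0.140). When limma was refitted on genes averaging 1 RPM or more the adjusted p of BRIP1 was 0.216, and it was 0.300 in edgeR and 0.404 in DESeq2. Of the 6 genes not called, FANCG, a core complex subunit, averaged 89.7 ± 9.10 RPM and 76.2 ± 3.65 (log2 fold change -0.23, adjusted p = 0.163). FANCI averaged 46.4 ± 10.1 RPM and 40.2 ± 3.90 with overlapping libraries (log2 fold change -0.19, 95% interval -0.68 to 0.31). FANCA, FANCC, FANCL and FANCM, 2 further core subunits, the ubiquitin ligase and the DNA translocase of the pathway, had log2 fold changes from -0.42 to -0.03.

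In mismatch repair 1 of 4 genes was lower and 0 higher by limma (0 higher also at an unadjusted p under 0.05, in edgeR and in DESeq2). MSH6, a subunit of the MutSα dimer that recognises base mismatches, read 86.1, 66.0 and 80.3 RPM in HuCCT1/CD90− against 48.4, 40.1 and 42.9 RPM in HuCCT1/CD90+. The lines did not overlap, and the log2 fold change was -0.81 (SE 0.13, adjusted p = 0.0208, and 0.0261 with the block). The call was kept without HuCCT1/CD90+ replicate 1 or HuCCT1/CD90− replicate 2 and lost without any other library (0.0566 to 0.0811). EXO1, the exonuclease of this route and of break resection, averaged 25.7 ± 4.97 RPM and 27.1 ± 3.67 (log2 fold change 0.08, 95% interval -0.39 to 0.56). MSH3, a subunit of the MutSβ dimer that recognises longer loops, averaged 8.09 ± 1.59 RPM and 6.18 ± 1.78 (log2 fold change -0.36, 95% interval -1.05 to 0.34). PMS2, the endonuclease subunit, had 30 to 58 reads a library and a log2 fold change of 0.22, and RefSeq lists pseudogenes of PMS2 whose reads the amplicon may share.

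In nucleotide excision repair 1 of 7 genes was lower and 1 higher, against 2 lower and 2 higher in limma on genes averaging 1 RPM or more, 2 lower and 1 higher in edgeR and DESeq2, and 1 lower and 0 higher with the replicate block. XPC, which finds the distortion left by an adduct outside transcribed strands, read 87.8, 84.6 and 76.8 RPM in HuCCT1/CD90− against 37.8, 46.5 and 41.9 RPM in HuCCT1/CD90+. The lines lay far apart without overlap, and the log2 fold change was -0.97 (SE 0.10, adjusted p = 0.00576). XPC kept its call without each library in turn (adjusted p at most 0.0328) and with the replicate block (0.0452). ERCC1, the partner that XPF needs to cut the damaged strand, read 7.11, 8.24 and 8.15 RPM against 10.9, 11.5 and 10.7 RPM, without overlap. Its log2 fold change was 0.45 (SE 0.06, adjusted p = 0.0142). The adjusted p was 0.0505 with the block, 0.0589 in edgeR and 0.0918 in DESeq2, and 0.0527 to 0.0546 without any HuCCT1/CD90+ library.

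ERCC4, the gene of XPF, read 11.2, 15.5 and 15.9 RPM in HuCCT1/CD90− against 8.36, 8.27 and 9.66 RPM in HuCCT1/CD90+ (log2 fold change -0.63, adjusted p = 0.0624). ERCC5, the gene of XPG, the nuclease that cuts on the other side of the lesion, read 10.8, 18.2 and 17.9 RPM and 32.1, 27.9 and 24.5 RPM (log2 fold change 0.84, adjusted p = 0.0887). Neither overlapped between the lines, and neither was called. ERCC2 and ERCC3, the helicases XPD and XPB of TFIIH, averaged 67.6 ± 10.6 and 31.7 ± 4.94 RPM in HuCCT1/CD90− against 83.3 ± 6.75 and 36.7 ± 3.64 RPM in HuCCT1/CD90+, and XPA, which verifies the lesion, had a log2 fold change of 0.13. The adjusted p of these 3 genes was 0.235 to 0.597.

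In base excision and single-strand break repair 1 of 4 genes was lower and 0 higher by limma, and likewise in edgeR and in DESeq2. With the replicate block 2 were lower and 0 higher, as at an unadjusted p under 0.05. PARP1, the main enzyme that marks strand breaks with poly(ADP-ribose), read 529.8, 483 and 509 RPM in HuCCT1/CD90− against 382, 344 and 367 RPM in HuCCT1/CD90+. Each HuCCT1/CD90+ library was below each HuCCT1/CD90− library, and the log2 fold change was -0.48 (SE 0.06, adjusted p = 0.00895). It kept its call without each library in turn (at most 0.0437) and with the block (0.0115), and lost it, at a log2 fold change of -0.06 (adjusted p = 0.587), when the median change of its neighbours on the chromosome was taken off. PARP2, its smaller relative, averaged 20.7 ± 2.21 RPM and 15.6 ± 0.809 without overlap (log2 fold change -0.38, adjusted p = 0.0503, and 0.0443 with the block). XRCC1, the scaffold that PARP activity recruits, averaged 52.4 ± 6.19 RPM and 63.7 ± 9.26 (log2 fold change 0.27, 95% interval -0.12 to 0.67), and its partner ligase LIG3 averaged 47.1 ± 4.16 and 46.0 ± 1.92 (log2 fold change -0.03, 95% interval -0.23 to 0.17). MGMT, the single gene of direct reversal, was low in both lines, at 0.853, 1.28 and 1.84 RPM in HuCCT1/CD90− against 0.965, 2.91 and 2.17 RPM in HuCCT1/CD90+ (9 to 25 reads, log2 fold change 0.34, adjusted p = 0.577).

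**Figure D2:**
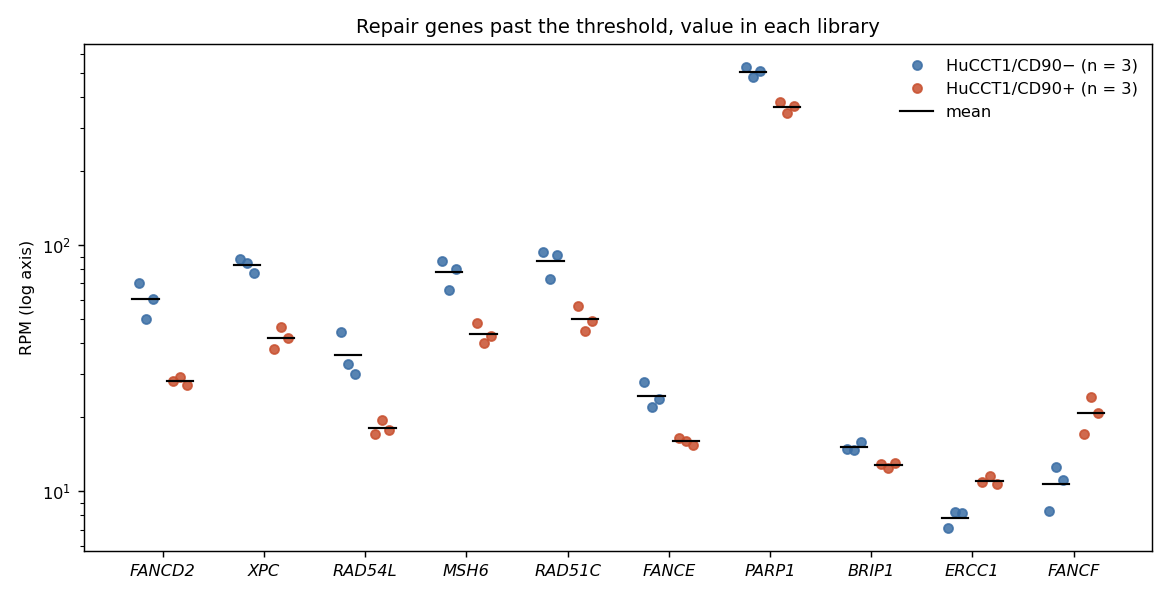
RPM (y axis, logarithmic) of the 10 repair genes past the threshold in each of the 3 HuCCT1/CD90− (blue) and 3 HuCCT1/CD90+ (orange) libraries, with bars at the mean. The libraries of the lines do not overlap for any of these 10 genes, and the difference is smallest for BRIP1 (14.8 to 15.9 against 12.5 to 13.0 RPM).

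How many repair genes passed depended on the fit. The fit over all genes included 3805 genes without a read in any library. Refitted on the 12062 genes averaging 1 RPM or more, limma called 6 repair genes higher and 10 lower of 51, where 20.6% and 21.1% of all genes of that fit were. On whole reads recovered from the RPM values, edgeR called 5 higher and 10 lower of 50 (22.2% and 22.2% of all genes), and DESeq2 called 15 of 52 (37.1% of all genes in either direction), 5 of them higher and 10 lower. In these 3 fits the share of repair genes that was lower was 19.2% to 20.0% and the share that was higher 9.62% to 11.8%. With the replicate block 2 were higher and 7 lower (6.72% and 6.40% of all genes), and at the thresholds of the study's methods, a fold of 1.5 with an unadjusted p of at most 0.05, 3 were higher and 6 lower (10.1% and 9.98%). Over all genes averaging 1 RPM or more, the shares higher and lower were 10.7% and 10.3% with the block. At the study's thresholds they were 15.9% and 15.8%. Without any test, 9 of the 51 genes averaging 1 RPM or more had all HuCCT1/CD90+ libraries above all HuCCT1/CD90− libraries and 17 had them all below, where 25.7% and 26.9% of all such genes did.

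Of the 10 genes called, 8 passed in the fits of limma over all genes, limma after the filter, edgeR and DESeq2: RAD51C, RAD54L, FANCE, FANCD2, MSH6, XPC and PARP1, which were lower, and FANCF, which was higher. A further 7 passed in the filtered limma fit, edgeR and DESeq2 but not over all genes. These were BRCA1 (adjusted p in the filtered fit 0.0486), XRCC5 (0.0389) and ERCC4 (0.0125), which were lower, and XRCC3 (0.0306), ATR (0.0427), XRCC4 (0.0141) and ERCC5 (0.00721), which were higher.

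**Figure D3:**
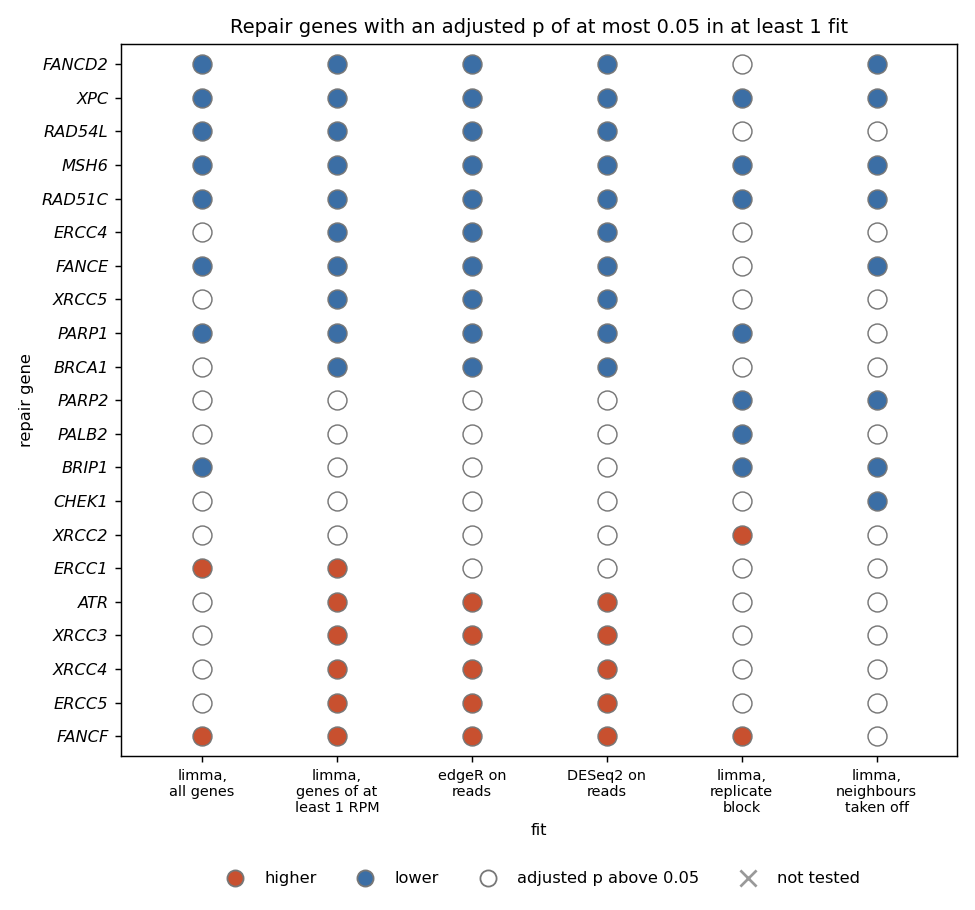
Calls (adjusted p at most 0.05) of the repair genes that passed in at least 1 of 6 fits (x axis), with genes ordered by log2 fold change from the most negative at the top (y axis). Blue circles are genes lower and orange circles genes higher in HuCCT1/CD90+, open circles did not pass, and XPC, MSH6 and RAD51C are filled in every column.

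Many repair proteins have a partner in a complex or a close relative with a similar task, and the ratio of 2 genes within a library does not depend on how that library was scaled. For 11 such pairs, chosen after the values were seen and therefore given without a test, the ratio of RPM did not overlap between the lines in 5. The share among other pairs of genes was not computed, and of single genes averaging 1 RPM or more 25.7% were above and 26.9% below without overlap, so nothing is read from that count. Since the amplicons differ, a ratio is compared between the lines and its level is not read. FANCD2 over FANCI was 1.25, 1.38 and 1.30 in HuCCT1/CD90− and 0.626, 0.772 and 0.707 in HuCCT1/CD90+, a difference of -0.90 on the log2 scale. ERCC1 over ERCC4, the subunits of the XPF nuclease, was 0.636, 0.531 and 0.512 and then 1.31, 1.39 and 1.11, a log2 difference of 1.18. RAD51C over XRCC3 was 0.744, 0.809 and 0.994 and then 0.360, 0.350 and 0.307, the log2 difference of -1.32 being the furthest from 0 among the 11. XRCC5 over XRCC6, the subunits of Ku, was 0.659, 0.678 and 0.635 and then 0.536, 0.449 and 0.434 (log2 difference -0.48), and RAD50 over MRE11A differed by 0.36. In the other 6 pairs, which were BRCA1 with BARD1, MSH6 with MSH3, PARP1 with PARP2, XRCC4 with LIG4, NBN with MRE11A and XRCC1 with LIG3, the ratios overlapped.

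**Figure D4:**
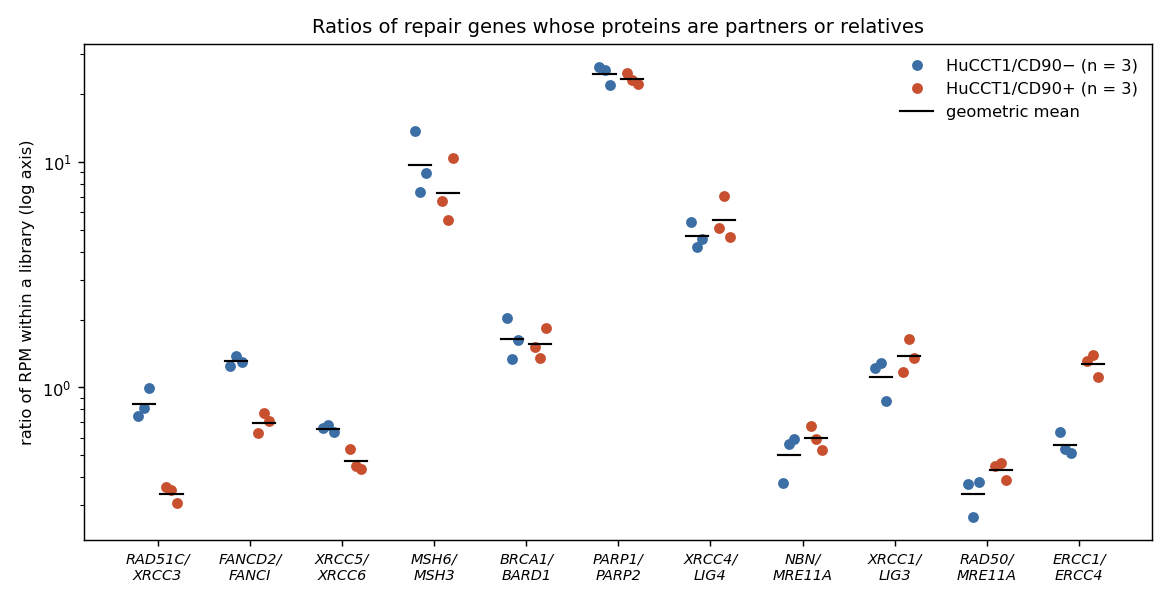
Ratio of the RPM of 2 repair genes within a library (y axis, logarithmic) for 11 pairs whose proteins are partners or relatives, in 3 HuCCT1/CD90− (blue) and 3 HuCCT1/CD90+ (orange) libraries, with bars at the geometric mean. The ratios separate for RAD51C/XRCC3, FANCD2/FANCI, XRCC5/XRCC6, RAD50/MRE11A and ERCC1/ERCC4 and overlap for the other 6 pairs.

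Cancer lines can gain or lose chromosome segments, and each repair gene was therefore set beside its surroundings, the median log2 fold change over the 50 nearest genes on its chromosome that averaged 10 RPM or more. Around PARP1 on chromosome 1 the neighbours had a median of -0.42, beside -0.48 for PARP1 itself. After the neighbours' median was taken off, 0 of the 52 genes were higher and 8 lower, and PARP1 was no longer called. In that fit 7.82% and 8.20% of all genes were higher and lower, and 11.7% and 12.9% of genes averaging 1 RPM or more. The calls of RAD54L (0.0576), FANCF (0.122) and ERCC1 (0.0521) were also lost, with neighbours at -0.24, 0.29 and 0.18. Their log2 fold changes in that fit were -0.71, 0.62 and 0.28, beside -0.06 for PARP1. XPC, FANCD2, MSH6, RAD51C, FANCE and BRIP1 stayed past the threshold (adjusted p 0.00810 to 0.0422) with neighbours between -0.13 and 0.01. ATR on chromosome 3 (log2 fold change 0.48, neighbours 0.61) and XRCC2 on chromosome 7 (0.39, neighbours 0.55) lay below the level of their surroundings, and PALB2 on chromosome 16 (-0.30) lay at it (-0.31). CHEK1 (0.0233) and PARP2 (0.0262), both lower, passed after the neighbours' median was taken off. DNA copy number was not measured in these libraries, and its part in these values was not tested.

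**Figure D5:**
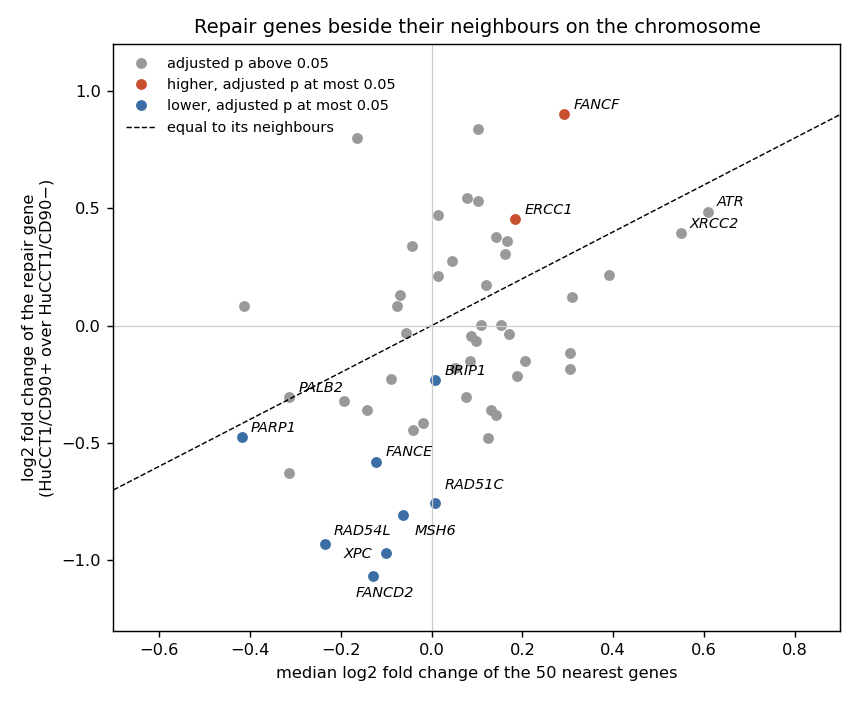
Log2 fold change of each repair gene (y axis) against that of its surroundings (x axis, median over the 50 nearest genes that averaged 10 RPM or more), HuCCT1/CD90+ over HuCCT1/CD90−, with the dashed line where both are equal. PARP1 (-0.48 beside -0.42) and PALB2 lie on the line, and FANCD2, XPC, MSH6 and RAD51C lie well below it.

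Reads of an amplicon cannot be assigned to a strand here, and in GENCODE release 29 an exon of 27 of the 52 genes overlaps an exon of a gene on the opposite strand. Among the genes called, GAS2, which overlaps FANCF, had at most 0.109 RPM, and C3orf24, which overlaps FANCD2, at most 0.321 RPM. CD3EAP, which overlaps ERCC1, had 40.5 to 43.4 RPM in HuCCT1/CD90− against 34.1 to 38.8 RPM in HuCCT1/CD90+. LSM3, which overlaps XPC, had 95.8 to 121.6 RPM and 77.0 to 89.9 RPM, again without overlap between the lines. FBXO11 beside MSH6 had 35.0 to 47.6 RPM and 40.2 to 49.4 RPM, and LRRC41 beside RAD54L 3.60 to 9.80 RPM and 3.32 to 5.75 RPM. Whether the amplicons of these genes lie in the shared stretch was not tested. RefSeq lists pseudogenes for 9 of the 52 genes, FANCD2 and PARP1 among those called, and reads from such copies could not be separated.

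Outside the 52, 122 further repair genes were listed by the same roles, of which 119 were in the table. In this list 10 were higher and 5 lower in HuCCT1/CD90+ (8.40% and 4.20%, beside 9.41% and 9.52% of all genes), and the median log2 fold change was -0.03. Of the 119, 113 averaged 1 RPM or more, and of all such genes 14.4% were higher and 15.0% lower. More were lower than higher in limma on genes averaging 1 RPM or more (14 higher and 20 lower, 12.4% and 17.7%). The same held in edgeR (16 and 22, 14.3% and 19.6%) and in DESeq2 (16 and 18, 13.8% and 15.5%). At the thresholds of the study's methods 7 were higher and 12 lower (5.88% and 10.1%), while the replicate block gave 10 higher and 4 lower (8.40% and 3.36%). Over all genes averaging 1 RPM or more, the shares higher and lower were 20.6% and 21.1% in that limma fit. They were 22.0% and 22.1% in edgeR, 21.1% and 20.3% in DESeq2, 15.9% and 15.8% at the study's thresholds, and 10.7% and 10.3% with the block. In homologous recombination SHFM1, the gene of DSS1, a small partner of BRCA2, averaged 118 ± 6.03 RPM in HuCCT1/CD90− against 243 ± 29.1 in HuCCT1/CD90+ (log2 fold change 1.03, adjusted p = 0.00547). In damage signalling RAD9A, a subunit of the checkpoint clamp, averaged 21.2 ± 1.81 RPM and 46.7 ± 2.70 (1.11, adjusted p = 0.00246), while MDC1, the scaffold on phosphorylated H2AX, averaged 131 ± 5.55 RPM and 78.6 ± 2.55 (-0.73, adjusted p = 0.00154). These 3 genes kept their calls without each library in turn.

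ERCC6, the gene of CSB, which starts repair in transcribed strands, read 67.2, 45.9 and 69.4 RPM in HuCCT1/CD90− against 15.8, 19.3 and 19.5 RPM in HuCCT1/CD90+, the largest fall in this further list among genes averaging 1 RPM or more (log2 fold change -1.67, adjusted p = 0.00944, and 0.0592 with the block). The direct reversal enzymes parted, ALKBH2 being lower (log2 fold change -0.87, adjusted p = 0.00852) and ALKBH3 higher (0.65, adjusted p = 0.0145). In end joining MAD2L2, the gene of the shieldin subunit REV7, was lower (-1.16, adjusted p = 0.0316, and 0.125 with the block) and PAXIP1, which acts with 53BP1, was higher (0.58, adjusted p = 0.0381, and 0.107 with the block). In base excision repair APEX1, the main abasic site endonuclease, was lower (-0.52, adjusted p = 0.0484, and 0.144 with the block). STRA13, a FANCM-associated protein gene, was higher (0.58, adjusted p = 0.0101). MAD2L2, PAXIP1 and APEX1 were each called in 1 of the 6 fits that leave out a library. ALKBH3 was called in 3, and ERCC6, ALKBH2 and STRA13 in all 6. With the neighbours' median taken off, the adjusted p of MAD2L2 was 0.128 (log2 fold change -0.69) and that of PAXIP1 0.728 (0.09).

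Because several repair genes follow the cell cycle, lists of S phase, G2/M and p53 target genes were set beside them. Of 30 S phase genes 6 were lower and 1 higher (13 and 1 in edgeR and in DESeq2, 7 and 1 with the replicate block, 4 and 1 with the neighbours' median taken off), and their median log2 fold change was -0.39. Their summed level was 3610, 2903 and 2889.9 RPM in HuCCT1/CD90− against 2648, 2432 and 2286 RPM in HuCCT1/CD90+. GINS4, a subunit of the replicative helicase, was lower (log2 fold change -1.42, adjusted p = 0.0110) and CCNE1, the gene of cyclin E1, was higher (1.24, adjusted p = 0.0231). Of 30 G2/M genes 3 were higher and 1 lower, with 10 and 4 in edgeR and in DESeq2 (median log2 fold change 0.08). With the replicate block 2 were higher and 2 lower. CCNA2 (adjusted p = 0.0902), ANLN (0.0553) and CDC25B (0.0549) no longer passed, while BUB1 (0.0485, higher), TOP2A (0.0261, lower) and CKS1B (0.0202, lower) did. With the neighbours' median taken off 0 were higher and 1 lower. Among the genes called were ECT2, a cytokinesis factor, at 0.99 (adjusted p = 0.0257, and 0.199 with its neighbours' median taken off) and CDC25B, a phosphatase that activates CDK1, at -0.98 (adjusted p = 0.0169, and 0.0549 with the block). Of 22 p53 target genes 2 were higher and 0 lower by limma (at an unadjusted p under 0.05, 5 and 1, in edgeR 4 and 3, in DESeq2 4 and 2, with the block 1 and 1, with the neighbours' median taken off 4 and 0, median log2 fold change 0.05). The higher genes were CDKN1A, the gene of the cell cycle inhibitor p21 (1.53, adjusted p = 0.0101), and GADD45A, a damage-induced growth arrest gene named after its values were seen (0.81, adjusted p = 0.0497, and 0.0564 with the block). Among the 6 fits that leave out a library, GINS4 was called in 5, CDC25B in 2, CCNE1 and ECT2 in 1 each, CDKN1A in 6 and GADD45A in 0. The summed S phase level was lower in each HuCCT1/CD90+ library than in any HuCCT1/CD90− library. The repair genes called lower were picked for being lower, so no parallel is read from them. The summed level of all 52 repair genes overlapped, at 3247 to 3690 RPM in HuCCT1/CD90− against 2878 to 3325 RPM in HuCCT1/CD90+, and their median log2 fold change was -0.06. The part of the S phase level in the values of the repair genes was not tested.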

How the data were processed

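The authors made 3 HuCCT1/CD90− and 3 HuCCT1/CD90+ libraries from total RNA with an Ion AmpliSeq whole-transcriptome panel, sequenced them on an Ion S5 Prime instrument and obtained read counts from the ampliSeqRNA plugin. The deposited table gives RPM, reads scaled to a common library total, for 20811 genes, unfiltered, and the sample labels name the group of each library. The submitters' processing notes name the Transcriptome Analysis Console and build hg19. The table holds no positions, so RefSeq (GRCh38.p14) was used for neighbours and promoters, and 19880 genes were placed on a chromosome. An amplicon that sits in 1 isoform misses others, and reads amplified by PCR without molecular identifiers mean that floors cover counting error only.

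The members and the gene lists were chosen with earlier results of these data known. All 52 genes are reported by role, the called ones with each library, and of those not called the 2 with the highest mean RPM of each role with values. Further members given with values were chosen after these were seen. Of the further lists, the called gene with the largest rise and the largest fall in each role is named (mean of at least 1 RPM), apart from an item that is not reported here.

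RPM was taken to log2(RPM + 1) and fitted in R 4.3.3 with limma 3.58.1 (lmFit, eBayes defaults) over all genes, after checks on simulated data. Whole reads were recovered for 100% of values (within 0.1 read) and tested with edgeR 4.0.16 (quasi-likelihood, TMM, filterByExpr) and DESeq2 1.42.0. Deviations from the line means of same-numbered libraries correlated with r = 0.209, 0.321 and 0.178, and those of differently numbered ones with -0.294 to 0.0706. The deviations of a line cancel out, so the values for same and different numbers depend on each other, and this check cannot settle the pairing. With no source saying what the numbers mark, the numbers were taken to pair the libraries in the fit with a block. The values reported are from the fit without a block, and the fit with a replicate block stands beside the genes named and the counts of lists that it changes. The other alternatives were pseudocounts of 0.1 and 5 RPM, filters at a mean of 1 and 10 RPM, quantile normalization, median centring, eBayes with trend and robust settings, each library left out, a fold of 1.5, and the median of 50 neighbours taken off.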

Additional observations from a re-analysis of the deposited data

How the results depend on the processing

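With 2 repair genes higher and 8 lower in HuCCT1/CD90+ as reported, the number higher was 6 with genes averaging 1 RPM or more, 6 with those averaging 10 RPM or more, 5 in edgeR, 5 in DESeq2, 1 with trend and robust eBayes, 1 when a fold of 1.5 was also required, and 0 with the neighbours' median taken off. The number lower was 5 with that fold and 7 to 12 under the other settings that keep all 6 libraries, apart from 6 at the thresholds of the study's methods. Leaving out 1 library gave 0 to 1 higher and 2 to 8 lower. Without HuCCT1/CD90+ replicates 1, 2 and 3 in turn 4, 4 and 2 were lower and 0 higher, and without HuCCT1/CD90− replicate 3 5 were lower and 1 higher. Over all genes these fits also called fewer, 1152 to 1393 higher and 1045 to 1539 lower in place of 1958 and 1981. With the replicate block, 2 repair genes were higher and 7 lower: FANCD2, FANCE, RAD54L and ERCC1 no longer passed and PALB2, XRCC2 and PARP2 did, and the block changed no other call among the 52. Trend and robust settings ended the call of FANCF. Over the alternatives run for the 10 genes called, the log2 fold change changed sign in 0, the adjusted p stayed past the threshold in 124 and was above it in 45. Quantile normalization and median centring moved the median log2 fold change of genes averaging 1 RPM or more to -0.01 and -0.03. For genes with at most 29 reads in a library (ATM, MGMT, CHEK2, RAD51B and RAD51D) small differences were not detectable at this depth.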
